A study of Mus musculus with 2 samples.

Results

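The cells described here are the MHC class II high cells of mouse bone marrow cultures, 1750 of the 23101 cells that passed the cell filter in 2 single-cell RNA libraries. They were chosen by their own transcripts. A cell qualified with at least 50 UMIs (unique molecules counted) per 10000 over H2-Aa, H2-Ab1, H2-Eb1 and Cd74. It also had to hold under 5 per 10000 of the B cell genes Cd79a and Cd79b, under 10 of the neutrophil gene Retnlg and under 10 of the complement genes C1qa, C1qb and C1qc. Both libraries came from bone marrow of wild-type 129Sv mice, cultured with 50 ng/ml of M-CSF (macrophage colony-stimulating factor) and 10% serum and treated on day 7 for 18 h. The THP library received 1 µg/ml of a truncated, non-polymerizing form of Tamm-Horsfall protein, or THP, a glycoprotein that kidney tubules release, known too as uromodulin. The vehicle library received 5% dextrose. The study has 1 library for each treatment, so no difference between the treatments has a replicate check, no p-value is given, and all intervals cover counting error only.

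The THP library held 843 class II high cells and the vehicle library 907. Their median depth was 13882 UMIs in THP and 18406 in vehicle, and together they supplied 13337071 and 18425481 UMIs. The median number of genes detected per cell was 3347 in THP and 4259 in vehicle. Mitochondrial transcripts made up a median of 2.98% and 3.25% of a cell's UMIs. No cell barcode was shared between the class II high cells of both libraries, and 38 barcodes were shared among all kept cells.

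MHC class II molecules carry peptides from ingested proteins to the cell surface, where CD4+ T cells read them. H2-Aa encodes an alpha chain, H2-Ab1 and H2-Eb1 encode beta chains, and Cd74 encodes the invariant chain that blocks the groove until the complex reaches the endosome. H2-DM then helps exchange the remaining fragment for a peptide, H2-O restrains H2-DM, and the coactivator Ciita turns the whole set of genes on. In bone marrow grown with M-CSF most cells become macrophages, and class II is best known from dendritic cells, B cells and activated macrophages.

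The start regions of 4 class II genes are printed because these genes were high together in the cells described here. The sequences are RefSeq's for GRCm38.p6 and run from 250 bases before to 50 bases after the annotated start, 5′ to 3′ on the gene's own strand. Capitals mark the letters of the Y box, GATTGG, or its reverse complement CCAATC, the core of the element bound by the factor NF-Y in class II promoters. H2-Aa lies on the minus strand at chr17:34287774-34288073, H2-Eb1 on the plus strand at chr17:34305617-34305916, H2-DMb1 on the plus strand at chr17:34152941-34153240 and H2-Oa on the plus strand at chr17:34092129-34092428.
H2-Aa: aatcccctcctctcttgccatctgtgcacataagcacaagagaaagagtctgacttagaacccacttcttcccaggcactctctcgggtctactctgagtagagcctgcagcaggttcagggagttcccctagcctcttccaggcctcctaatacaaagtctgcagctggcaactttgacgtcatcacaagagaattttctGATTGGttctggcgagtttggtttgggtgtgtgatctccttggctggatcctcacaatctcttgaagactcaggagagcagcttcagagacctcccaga
H2-Eb1: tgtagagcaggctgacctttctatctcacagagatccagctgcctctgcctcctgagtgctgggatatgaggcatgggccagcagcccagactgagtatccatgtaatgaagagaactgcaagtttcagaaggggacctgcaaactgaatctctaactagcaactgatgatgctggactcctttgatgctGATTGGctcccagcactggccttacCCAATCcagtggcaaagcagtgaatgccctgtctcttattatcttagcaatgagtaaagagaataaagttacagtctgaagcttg
H2-DMb1: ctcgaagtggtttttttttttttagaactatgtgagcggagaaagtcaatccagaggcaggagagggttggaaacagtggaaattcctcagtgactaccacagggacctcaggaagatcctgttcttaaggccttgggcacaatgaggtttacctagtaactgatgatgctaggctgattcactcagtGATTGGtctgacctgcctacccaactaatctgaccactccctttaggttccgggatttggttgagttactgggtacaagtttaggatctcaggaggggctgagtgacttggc
H2-Oa: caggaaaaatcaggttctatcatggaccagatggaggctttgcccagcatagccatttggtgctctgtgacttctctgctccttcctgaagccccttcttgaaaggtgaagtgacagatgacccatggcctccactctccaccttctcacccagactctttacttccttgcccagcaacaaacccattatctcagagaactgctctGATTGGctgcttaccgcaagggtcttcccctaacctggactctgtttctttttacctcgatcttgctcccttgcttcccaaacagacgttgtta
Of 11 class II pathway genes looked up, 8 had an entry in the promoter table, and each of these 8 held the letters on at least 1 strand in at least 1 of its entries. Of all 32851 promoters in the table, counted entry by entry, 16.1% held them. Among genes that reached 10 CPM (UMIs of a gene per 1000000 UMIs) in the class II high cells in at least 1 library and had an entry, the share was 23.8%. That share counts a gene with the letters in any of its entries. The first base of the motif lay 49 bases before the start in H2-Aa, 62 in H2-DMb1 and 44 in H2-Oa, and H2-Eb1 held a copy on each strand. Among the genes not printed it lay 58 bases before the start in H2-Ob, 91 in H2-DMb2 and 101 in H2-Eb2. H2-DMa had an entry without the letters and another with them 199 bases before the start. The letters were picked with the sequences in view, and a match is a description of these windows only.

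Class II transcripts formed a long tail rather than a separate peak (the histogram of class II transcripts per cell). The median kept cell outside the class II high set held 0.755 class II UMIs per 10000 in THP and 0.759 in vehicle, and 34.9% and 34.0% of those cells held none. Inside the set the level ran from 50.4 to 933 per 10000 in THP, with a median of 169.7 and quartiles of 93.4 and 349. In vehicle it ran from 50.1 to 919, with a median of 154 and quartiles of 88.6 and 278. The ranges of both libraries overlapped almost fully. Near the limit of 50 the genes of the pathway did not all point one way. The 20 vehicle cells just inside it (50.1 to 53.4 per 10000) held 153 CPM of H2-DMb1, a chain of H2-DM, and the 20 just outside (48.0 to 49.9) held 189 CPM. In THP the values were 109.9 CPM inside (50.4 to 52.2) and 144 CPM outside (47.1 to 49.6). Ciita was higher inside, at 44.2 against 41.2 CPM in vehicle and 18.3 against 5.23 CPM in THP. H2-DMa was also higher inside, at 181 against 154 CPM and 128 against 107 CPM. Each of these values sums 20 cells and has no interval, so the directions may lie within counting error.

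**Figure D1:**
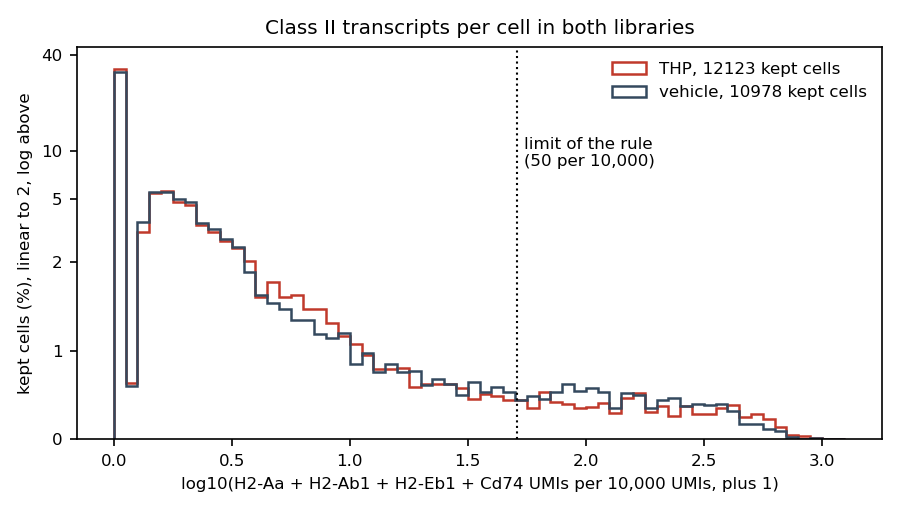
Histogram of summed H2-Aa, H2-Ab1, H2-Eb1 and Cd74 UMIs per 10000 UMIs in each kept cell, on a log10 axis after adding 1, as a percentage of the kept cells of each library (12123 in THP and 10978 in vehicle, with a vertical axis that is linear to 2 and logarithmic above). Most cells sit at or near 0, and the tail crosses the limit of 50, drawn as a dotted line, without a gap.

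The rule removed 137 THP and 103 vehicle cells that reached the class II limit. Cd79 transcripts removed 69 and 46 of them, C1q transcripts 63 and 53, and Retnlg 8 and 5, with some cells failing more than 1 limit. What remained made up 6.95% of the kept THP cells (exact binomial 95% interval 6.51 to 7.42%) and 8.26% of the kept vehicle cells (7.75 to 8.79%). The intervals did not overlap. The lower share in THP was also present when every cell was thinned to 5000 UMIs, at 7.56% of 10165 cells (7.05 to 8.09%) against 9.82% of 9012 (9.21 to 10.5%), with 1958 THP and 1966 vehicle cells too shallow to be used. With 1 library per treatment, the treatment and the culture cannot be told apart.

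Beyond the 4 genes that chose them, the cells held other genes of the class II pathway at levels above those of the remaining cells, given here as a description with no test. Ciita stood at 105 CPM in THP and 132 CPM in vehicle, against 1.96 and 4.29 CPM in the other kept cells. H2-DMb1 stood at 373 and 366 CPM, against 34.7 and 43.6 CPM outside. H2-DMa, the partner chain, stood at 310.0 and 333 CPM, against 47.8 and 73.8 CPM. H2-Oa, the alpha chain of H2-O, stood at 47.2 and 39.3 CPM, against 2.36 and 3.14 CPM. The 4 genes of the rule ran from 2909 CPM (H2-Eb1) to 9054 CPM (Cd74) in THP and from 2544 CPM (H2-Ab1) to 8231 CPM (Cd74) in vehicle.

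Among genes with at least 50 CPM in both libraries, the 15 with the greatest ratios to the other kept cells held 7 class II pathway genes and 8 others. Ccl5, a chemokine that draws T cells and monocytes, stood at 91.2 CPM in THP and 84.8 in vehicle, against 7.59 and 7.79 outside. The 34 mature Ccr7 cells described further on held 749 of its 1216 UMIs in THP and 1125 of 1562 in vehicle, and the other class II high cells stood at 28.6 CPM. The membrane protein gene Ms4a4c stood at 135 and 108 CPM, against 19.6 and 15.9 outside. The secreted ribonuclease gene Rnase6 stood at 79.2 and 85.4 CPM, and the C-type lectin gene Clec4b1 at 248 and 163 CPM. The receptor gene Slamf9, the integrin chain gene Itgb7, the cysteine protease gene Ctsh and Cytip, whose product binds cytohesin, completed the list. The ratios of these last 4, with 1 CPM added to each level, ran from 4.06 (Ctsh in vehicle) to 6.74 (Slamf9 in THP).

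The marker genes given for these cells were met in part. H2-Aa, H2-Ab1, H2-Eb1 and Cd74 are the rule itself. Cd209a, a lectin of conventional and monocyte-derived dendritic cells, stood at 2.85 CPM in THP and 5.10 CPM in vehicle and had a UMI in 3.56% and 6.95% of cells. After thinning to 5000 UMIs it was seen in 1.56% of 769 THP cells (exact binomial 95% interval 0.809 to 2.71%) and 2.42% of 869 vehicle cells (1.502 to 3.67%), with 74 and 38 shallower cells left out. In Retnlg-high neutrophil cells, which should lack it, it was seen in 0 of 138 thinned cells in each library, which allows up to 2.64% by the same interval. The median depth of the Retnlg-high cells before thinning was 2646 UMIs in THP and 2453 in vehicle, and 572 and 862 of them were too shallow to thin.

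Markers of several lineages were present. Of 10 macrophage markers, 6 reached 50 CPM in each library, with Csf1r, the M-CSF receptor, at 214 CPM in THP and 239.8 CPM in vehicle. Adgre1, the F4/80 antigen, stood at 195 and 171 CPM. Of 8 core markers of conventional dendritic cells in the files, 2 reached 50 CPM in THP (Traf1 and Itgax) and 1 in vehicle (Itgax). The dendritic cell factor Zbtb46 stood at 8.25 and 11.6 CPM, against 0.430 and 0.412 CPM in the other kept cells. The receptor gene Flt3 stood at 4.57 and 8.47 CPM, against 0.274 and 0.391 CPM. All 10 mitotic markers reached 50 CPM in each library. The 10 neutrophil markers summed to 7898 CPM in THP and 4772 CPM in vehicle, against 26189 and 34203 CPM in the other kept cells. By these markers the class II high cells were a mixture, so the name says what was selected and not a single cell type.

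Clustering of the 1750 cells alone showed the makeup of this mixture. With all genes in use, 2 of 10 clusters drew 90.5% and 95.7% of their cells from THP, and 3 drew 1.90 to 5.32%. In that clustering the mature dendritic cell-like cluster held 181 THP cells (21.5%) and 51 vehicle cells (5.62%), and the conventional dendritic cell-like cluster 5 and 89 cells, so these shares depend on which genes enter. A further clustering therefore left out the 1872 genes that differed between the libraries by 1.5-fold or more, a choice made after the data had been seen. It gave 11 clusters with cells of both libraries (the plot of cluster shares). The conventional dendritic cell-like cluster held 11.0% (8.997 to 13.3%) of the class II high cells in THP (93 cells) and 11.0% (9.06 to 13.2%) in vehicle (100 cells), the ranges being exact binomial 95% intervals. The macrophage-like cluster held 26.1% (23.2 to 29.2%) and 22.8% (20.1 to 25.7%). A mature dendritic cell-like cluster, marked by the lymph node homing receptor Ccr7, held 17 cells in each library. A plasmacytoid dendritic cell-like cluster held 21 and 17 cells. The mitotic-like cluster held 14.8% (12.5 to 17.4%) and 19.4% (16.9 to 22.1%). The intervals overlapped between the libraries for each of the 11 clusters. Leaving out the differing genes favours clusters that mix both libraries, so this overlap is no finding about the treatment. The conventional dendritic cell-like cluster joined 100 cells of the all-gene mature dendritic cell-like cluster with 88 of the all-gene conventional one.

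**Figure D2:**
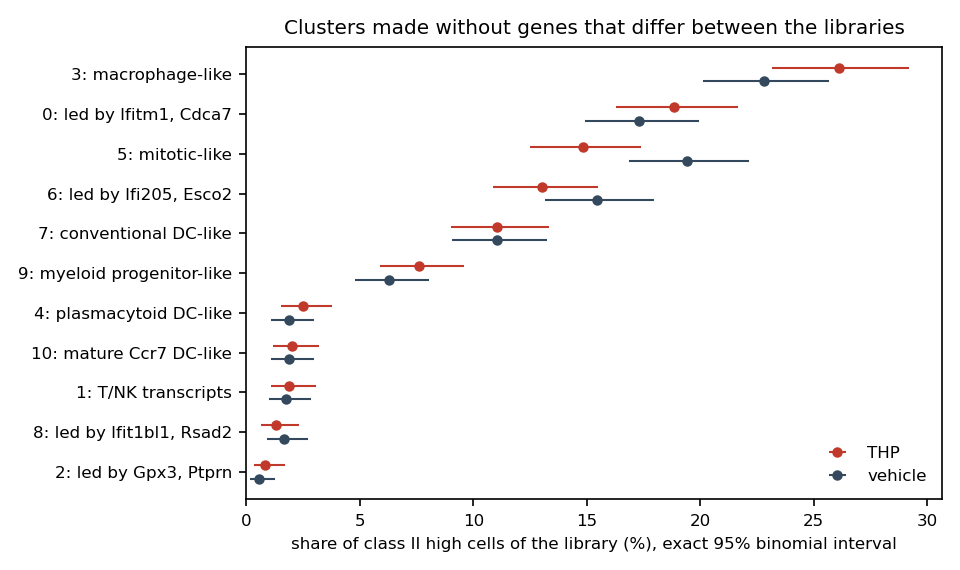
Share of the class II high cells of each library in each of the 11 clusters (points, with exact 95% binomial intervals for counting error; n = 843 cells in THP and 907 in vehicle). The intervals of both libraries overlap in every cluster, and the macrophage-like cluster has the greatest share in both. The clusters were formed without the genes that differ between the libraries, which favours such overlap.

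Class II was highest in the conventional and mature dendritic cell-like clusters, as a description of the genes that formed them. The conventional dendritic cell-like cells had a median of 446 class II UMIs per 10000 and the mature Ccr7 cells 427, against 296 in the unnamed cluster led by the interferon-inducible gene Ifi205 and 93.4 in the macrophage-like cells. In the Ifi205-led cells all 10 mitotic markers reached 50 CPM, with a sum of 4386 CPM beside 4374 CPM in the mitotic-like cells. The plasmacytoid dendritic cell-like cells, at 95.4, were close to the macrophage-like cells. With both libraries summed, Ciita stood at 433 CPM in the conventional dendritic cell-like cluster, 219 CPM in the mature Ccr7 cluster and 54.6 CPM in the macrophage-like cluster. H2-Oa stood at 266, 176 and 10.7 CPM in the same order. H2-DMb1 broke this order, at 569.9 CPM in the conventional dendritic cell-like cells, 119 CPM in the mature Ccr7 cells and 272 CPM in the macrophage-like cells.

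The dendritic cell clusters differed in their markers (the heat map of marker levels). In the conventional dendritic cell-like cells, Zbtb46 stood at 53.5 CPM, the lectin gene Clec10a at 213 CPM and Cd209a at 19.7 CPM, the highest level of Cd209a among the 11 clusters. The type 1 dendritic cell genes Xcr1 and Clec9a stood at 9.85 and 1.41 CPM there. In the mature Ccr7 cells, Ccl5 stood at 11752 CPM, Ccr7 at 1631 CPM and the actin bundler gene Fscn1 at 1712 CPM. Il12b, a subunit of interleukin 12, stood at 596 CPM there, while Csf1r had no UMI. In the plasmacytoid dendritic cell-like cells, the lectin gene Siglech stood at 962 CPM and the transcription factor gene Tcf4 at 1322 CPM.

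Macrophage-like cells carried the lipid-sensing receptor gene Trem2 at 504 CPM, the elastase gene Mmp12 at 1475 CPM and Apoe at 97.9 CPM. The topoisomerase gene Top2a, active in dividing cells, stood at 836 CPM in the mitotic-like cells and 1085 CPM in the Ifi205-led cells. The conventional dendritic cell-like cells held 36.6 CPM of Top2a. A large unnamed cluster of 316 cells, led by Ifitm1, held 521 CPM of the monocyte chemokine receptor gene Ccr2. Over all class II high cells Ccr2 stood at 249 CPM in THP and 468 CPM in vehicle. The 8 monocyte markers summed to 897 CPM in the Ifitm1-led cells and 1068 CPM in the conventional dendritic cell-like cells, so these levels do not name the cluster. An unnamed cluster of 26 cells led by interferon-response genes held 2547 CPM of Cxcl10, and 12 cells with a median of 1993 UMIs formed another unnamed cluster.

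Transcripts of other lineages sat in small clusters. In a myeloid progenitor-like cluster of 121 cells, the granule protease gene Elane stood at 1692 CPM and the neutrophil gene S100a9 at 28662 CPM, against 599 CPM of S100a9 in the macrophage-like cells. The neutrophil markers also met the naming rule there, with 8 of 10 at 50 CPM and a sum of 49183 CPM. The 7 progenitor markers summed to 9955 CPM. The name was set by the 10 leading genes, which held 5 progenitor and 3 neutrophil markers. A further 32 cells held T or NK cell transcripts, with Cd3g, a T cell receptor complex gene, at 122 CPM. The libraries gave 64 and 57 cells to the progenitor-like cluster, and 16 each to the T or NK cluster. No cell was removed as a doublet, and the part of doublets in these clusters was not tested. Their median depths were 22652 and 15804 UMIs, against 4887 in the plasmacytoid dendritic cell-like and 7039 in the conventional dendritic cell-like cells.

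**Figure D3:**
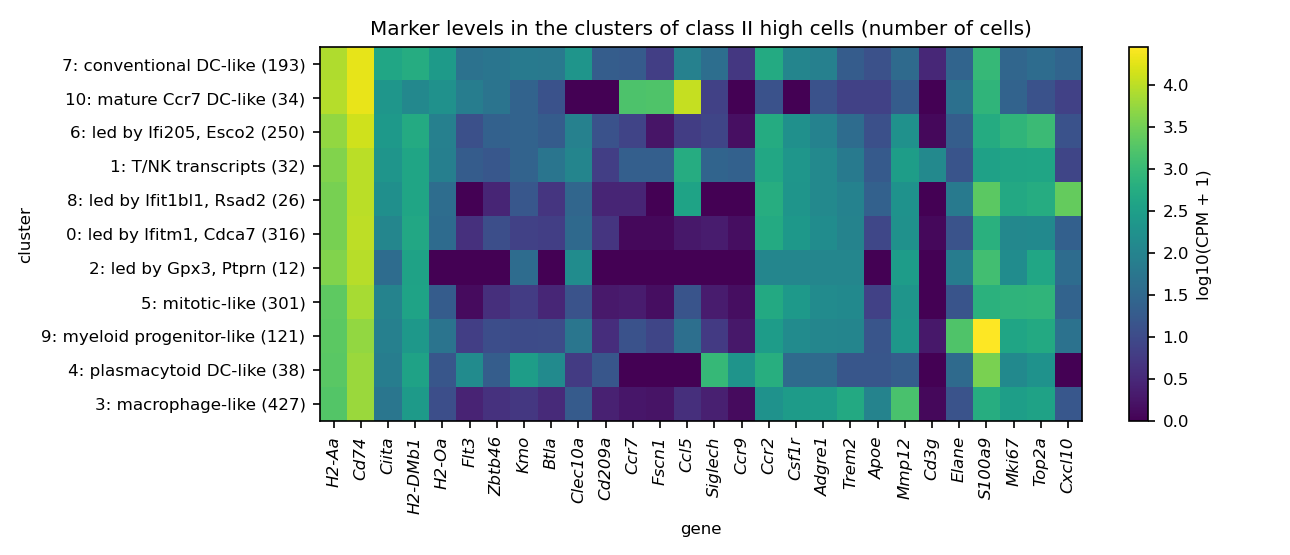
Levels of 28 genes, as log10 of CPM plus 1 with both libraries summed, in the 11 clusters of class II high cells, ordered by median class II level from top to bottom, with the number of cells in parentheses. Conventional dendritic cell-like and mature Ccr7 cells are at the top, with Ccr7, Fscn1 and Ccl5 high in the latter, and macrophage-like cells with high Trem2 and Mmp12 at the bottom.

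With the cells ordered by class II level, some genes rose or fell steadily in both libraries and others did not. The ranges are cut on the 4 genes of the rule. Over 4 ranges (50 to 100, 100 to 200, 200 to 400, and 400 or more class II UMIs per 10000), H2-Oa stood at 11.7, 30.5, 71.8 and 174 CPM in vehicle and at 10.6, 23.5, 68.8 and 213 CPM in THP. Ciita stood at 54.1, 113, 242 and 390.2 CPM in vehicle and at 29.5, 68.4, 193 and 317 CPM in THP. Both genes were therefore higher in each range than in the one before it. Trem2 ran the opposite way, at 374, 226, 89.2 and 65.2 CPM in vehicle and 331, 236, 117 and 29.1 CPM in THP. Ctsl, a lysosomal protease gene, stood at 1018, 645, 213 and 84.8 CPM in vehicle. Ccl5 had no steady order, at 129, 27.6, 23.5 and 376 CPM in vehicle and 76.7, 43.2, 185 and 99.2 CPM in THP. Depth ran along the class II ranges too, with a median of 22738 UMIs in the lowest and 7925 in the highest vehicle range, and its part in these levels was not tested.

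A further 62 THP and 52 vehicle cells reached the class II limit and met the other limits but held 10 or more C1q UMIs per 10000. Mrc1, the mannose receptor of macrophages, stood at 343 CPM in them in vehicle, against 40.8 CPM in the class II high cells. Apoe stood at 289 CPM in them and 33.4 CPM in the class II high cells. Their Ciita level was 114 CPM in vehicle and 66.9 CPM in THP, beside 132 and 105 CPM in the class II high cells.

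The comparison the study was made for asks what THP does to these cells. UMIs were summed over the class II high cells of each library and scaled to CPM, and a gene was called when it reached 10 CPM in 1 library and its log2 ratio of CPM plus 1 passed 2-fold. Of 7857 genes at 10 CPM, 89 were higher in THP (1.13%) and 304 lower (3.87%). The median log2 ratio over these genes was -0.21, so the total-count scale sat below 0. With TMM scaling, which centres the bulk of genes, 140 were higher and 113 lower. The calls describe these 2 libraries. Counts in the gene lists below are to be read beside the shares of 1.13% and 3.87% over all genes tested. The lists were chosen with earlier results of these data known, so a count in a list is a description and no independent support.

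The class II genes themselves differed little. H2-Aa stood at 3288 CPM in THP (exact Poisson 95% interval 3258 to 3319) and 2845 CPM in vehicle (2820 to 2869), a log2 ratio of 0.21. The log2 ratios of H2-Ab1, H2-Eb1 and Cd74 were 0.23, 0.17 and 0.14. None of the 4 passed 2-fold, and centring the ratios by transcript length turned H2-Ab1, H2-Eb1 and Cd74 to -0.14, -0.11 and -0.14. These 4 genes chose the cells in each library, so the rule bounds their levels from below.

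The rest of the pathway stayed within 2-fold with 2 exceptions. Of 15 further pathway genes in the files, 12 reached 10 CPM, 1 was past 2-fold higher and 1 past 2-fold lower, with a median log2 ratio of 0.02. March1, whose product marks class II and CD86 for degradation, stood at 36.8 CPM in THP (33.6 to 40.2) and 111 CPM in vehicle (107 to 116). Its log2 ratio was -1.57, and the gene lies on the + strand of chromosome 8, from 65617900 to 66471637 (GRCm38, GENCODE M21). Cd83, whose product opposes March1 at the membrane, stood at 20.02 CPM in THP (17.7 to 22.6) and 8.03 CPM in vehicle (6.79 to 9.44), a log2 ratio of 1.22. It reversed to -0.65 when both libraries were given the same mix of the clusters formed with all genes, limited to the 7 clusters in which each library had at least 11 cells. That mix left out the clusters with 197, 258 and 89 vehicle cells. The differing genes also helped form those clusters. Traf1, Il1b and Gpr84 were among the 10 leading genes of the cluster with 242 THP and 11 vehicle cells. The mix is thus not independent of the ratios, here and below, and no conclusion is drawn from a ratio that shrank under it. Within the 6 largest mixed clusters described further on, Cd83 was above 0 throughout, from 0.30 to 2.45. Ciita had a log2 ratio of -0.33 and H2-DMb1 one of 0.03.

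Class I presentation genes showed small ratios with 2 calls. Of 17 measured members, 2 were past 2-fold higher and 0 lower, with a median of 0.08. H2-Q7 stood at 39.0 CPM in THP and 16.2 CPM in vehicle (log2 ratio 1.22), and H2-Q6 at 13.2 and 5.26 CPM (1.18). Both are nonclassical class I genes whose reads can be shared with close copies, and both reversed with the same mix of clusters, to -0.21 and -0.45. The classical heavy chain gene H2-K1 had a log2 ratio of 0.43 and B2m, the light chain, one of 0.39.

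Inflammatory cytokine and chemokine genes held the greatest differences. Of 20 members at 10 CPM, 12 were past 2-fold higher and 0 lower, beside 1.13% and 3.87% of all genes tested. Their median log2 ratio was 1.498 beside -0.21 over all genes. Il1b, which encodes interleukin 1 beta, stood at 111 CPM in THP (exact Poisson 95% interval 106 to 117) and 11.1 CPM in vehicle (9.65 to 12.8), a log2 ratio of 3.21 that moved to 1.91 with the same mix of clusters. Thinned to 5000 UMIs, 24.3% of class II high cells in THP held an Il1b UMI (21.3 to 27.5%) against 3.68% in vehicle (2.53 to 5.16%). Without thinning the shares were 38.3% and 8.49%. The Retnlg-high cells are neutrophils that also transcribe Il1b. Their thinned shares were 37.7% in THP (29.6 to 46.3%) and 6.52% in vehicle (3.03 to 12.02%). The THP interval lay above that of the class II high cells, and the vehicle intervals of both cell sets overlapped. Only 138 Retnlg-high cells in each library were deep enough to thin. Before thinning, the Retnlg-high shares were 51.1% of 710 cells in THP and 21.4% of 1000 in vehicle. The part of free RNA in the Il1b shares was not tested. The gene lies on the - strand of chromosome 2, from 129364570 to 129371139 (GRCm38, GENCODE M21).

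Chemokines that recruit monocytes and neutrophils followed. Ccl3 stood at 147 CPM in THP (140.2 to 153) and 20.8 CPM in vehicle (18.8 to 22.98). Ccl4 stood at 128 CPM (122 to 134) and 17.3 CPM (15.5 to 19.3). The intervals of both libraries stayed apart for Il1b, Ccl3 and Ccl4. Cxcl3, a neutrophil attractant, had a log2 ratio of 2.76, Tnf 2.23, Cxcl1 2.17 and Cxcl2 2.00. Ccl9 had a log2 ratio of 0.39 and Ccl5 one of 0.10. Most of the Ccl5 level came from the 34 mature Ccr7 cells, and its log2 ratio ran from -2.40 to 1.65 over the 6 largest mixed clusters described further on.

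Genes of the NF-kB response and its feedback were the next group, with 13 of 23 measured members past 2-fold higher, 0 lower and a median log2 ratio of 1.09. Over all genes tested, 1.13% were higher and 3.87% lower. Bcl2a1b, a survival gene, stood at 295 CPM in THP and 63.9 CPM in vehicle (log2 ratio 2.19), and near-identical family members make its reads uncertain. Traf1, an adaptor of TNF receptors, stood at 132 CPM (126 to 138) and 29.4 CPM (26.9 to 31.9), a log2 ratio of 2.13 that moved to 0.59 with the same mix of clusters. The inhibitor gene Nfkbia had a log2 ratio of 1.54, Tnip1, which restrains the pathway, 1.75 and the superoxide dismutase gene Sod2 1.40, the last moving to 0.77 with that mix.

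Costimulation genes were mixed. Of 9 measured members, 2 were past 2-fold higher and 0 lower, with a median log2 ratio of 0.06. Cd40, the receptor through which helper T cells signal, stood at 36.1 CPM in THP (33.0 to 39.5) and 7.92 CPM in vehicle (6.69 to 9.32), a log2 ratio of 2.06. Icam1, an adhesion molecule for T cells, had a log2 ratio of 1.58. With the same mix of clusters both were under 2-fold, at 0.98 and 0.76. Cd86, a ligand of CD28, was at 43.2 CPM in THP and 58.4 CPM in vehicle, a log2 ratio of -0.43. Vsir, a checkpoint gene, had one of -0.93.

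Receptors that sense microbes divided by gene. Of 11 measured members, 2 were past 2-fold higher and 1 lower. Cd14, the coreceptor for lipopolysaccharide, stood at 758 CPM in THP and 276 CPM in vehicle (log2 ratio 1.45), and Tlr2 had a log2 ratio of 1.23. Tlr8 had one of -1.60, which moved to -0.74 with a pseudocount of 10. Tlr4, the receptor that works with Cd14, stood at 10.1 CPM in THP and 19.9 CPM in vehicle, a log2 ratio of -0.91. Among 12 measured C-type lectins, Clec4e (1.39) and Clec4a1 (1.02) were past 2-fold higher and 0 were lower. Clec4e encodes Mincle, a sensor of mycobacterial glycolipids. The same mix of clusters took Tlr2, Clec4e and Clec4a1 under 2-fold, to 0.87, 0.60 and 0.56, and length centring took Clec4a1 to 0.74.

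The counts in the other lists are read beside those over all genes tested, of which 1.13% were higher and 3.87% lower by 2-fold. Of 26 measured interferon-stimulated genes, 0 were called in either direction, with a median log2 ratio of -0.26 beside -0.21 over all genes. Of 20 lineage transcription factors, 13 Fc, phagocytic and complement receptors and 15 lysosomal genes, 0 were called. Among 18 growth factor and cytokine receptors, Tgfbr1 (-1.19) and Il6ra (-1.13) were past 2-fold lower. Ccrl2, an atypical chemokine receptor gene, was past 2-fold higher (1.16) among 7 chemokine receptors, while Ccr2 stood at 249 CPM in THP and 468 CPM in vehicle (-0.91). Of 20 cell cycle genes, the proliferation marker gene Mki67 was past 2-fold lower, at 251 and 580.2 CPM (-1.21). Top2a had a log2 ratio of -0.83 and the survivin gene Birc5 one of 0.13. With TMM scaling Mki67 moved to -0.99, Tgfbr1 to -0.98 and Il6ra to -0.92, all under 2-fold, and Ccrl2 moved to 0.13 with the same mix of clusters.

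Other genes with high ratios in THP, named by a rule that asked for the same sign in each of the 3 all-gene clusters with at least 50 cells per library, were Acod1, Saa3, Upp1, Mmp14, Fpr2 and Gpr84. Acod1, the enzyme that makes itaconate, stood at 56.1 CPM in THP (52.1 to 60.3) and 5.64 CPM in vehicle (4.61 to 6.84), a log2 ratio of 3.103, or 1.72 with the same mix of clusters. The acute phase gene Saa3 had a log2 ratio of 2.67 and the formyl peptide receptor gene Fpr2 2.42. The fatty acid receptor gene Gpr84 had a log2 ratio of 2.37. The uridine phosphorylase gene Upp1 (2.49) and the matrix protease gene Mmp14 (2.42) rest on low counts, with 24 and 20 UMIs in vehicle, and were above 0 in 5 and 4 of the 6 clusters that mix both libraries. With a pseudocount of 10 both were under 2-fold, at 0.96 and 0.87. With the same mix of the all-gene clusters Gpr84 moved to 0.89, under 2-fold.

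The lowest ratios were named by the same rule on sign, which 294 of the 304 lower genes met. Among the 10 lowest of these, Slc8a1, a sodium-calcium exchanger gene, stood at 3.75 CPM (2.78 to 4.94) and at 20.3 CPM in vehicle (18.3 to 22.5). Its log2 ratio was -2.17. Hpgd, which inactivates prostaglandins, stood at 9.90 CPM (8.28 to 11.7) in THP and at 46.2 CPM (43.2 to 49.5) in vehicle, with -2.12 as its log2 ratio. Il1rl1, the receptor for interleukin 33, stood at 4.95 against 21.2 CPM (-1.90). Of the replication-dependent histone genes, Hist1h3c (-1.91), Hist1h1e (-1.83) and Hist1h2ap (-1.71) were among the 10, and members of this family share sequence. Rnf144b (-2.13), Rnf150 (-1.90), Arhgef18 (-1.84) and Crot (-1.67) completed them.

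Ratios moved with transcript length over all genes, and this sits beside every count of lower genes. Across the 7853 genes at 10 CPM with an annotated length, the log2 ratio and the longest transcript had a Spearman rho of -0.56, a description across genes of 2 libraries. Among 5 equal groups of genes by length, the median log2 ratio was 0.12 in the shortest and -0.56 in the longest. The 304 lower genes had a median longest transcript of 5180 bases, the 89 higher genes 2230 bases and all genes tested 3389 bases. With the ratios centred by length, 129 genes were lower and 85 higher. Of the 304 lower genes 102 were still called, and of the 89 higher genes 73. The part of length in single ratios was not tested.

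The differences were present within clusters that mix both libraries. In 6 of the 11 clusters each library had at least 50 cells, and Il1b was higher in THP in all 6, with log2 ratios from 1.88 to 4.31 (the heat map of ratios within clusters). In macrophage-like cells it stood at 90.8 CPM in THP and 4.67 CPM in vehicle, and in conventional dendritic cell-like cells at 254 and 68.4 CPM. Traf1 (1.63 to 2.64), Gpr84 (2.19 to 2.74), Cd14 (1.25 to 1.74), Nfkbia (1.204 to 1.98) and Acod1 (2.51 to 3.44) were above 0 in all 6. March1 (-1.95 to -1.29), Hpgd (-3.05 to -1.79), Slc8a1 (-2.88 to -1.90) and Mki67 (-1.33 to -0.97) were below 0 in all 6. Of the 89 genes called higher, 88 were above 0 in the macrophage-like cells and 82 in the conventional dendritic cell-like cells, and of the 304 called lower, 304 and 286 were below 0. The median log2 ratio over all genes tested there was -0.15 and -0.36. The calls used sums that include these cells, so shared signs are no independent evidence. Il1b, Acod1, Gpr84, Hpgd and Slc8a1 were also named for a shared sign in all-gene clusters of many of the same cells. Without the 121 cells of the granule gene cluster formed with all genes, 90 genes were higher and 338 lower, 86 and 289 of them among the 89 and 304.

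**Figure D4:**
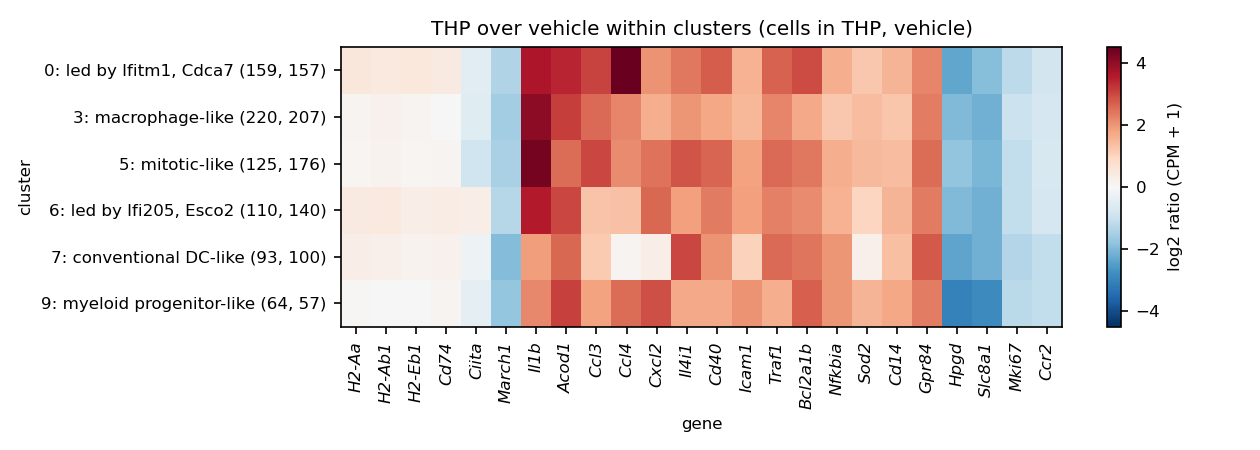
Log2 ratio of THP over vehicle (CPM plus 1) for 24 genes in the 6 clusters with at least 50 cells in each library, with the cell numbers of THP and vehicle in parentheses; red is higher in THP and blue lower. Il1b is red in every row (1.88 to 4.31), class II genes are close to white, and Ccl4, Cxcl2 and Sod2 are palest in the conventional dendritic cell-like row (0.11, 0.31 and 0.23).

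Some genes were unevenly spread over those clusters. In conventional dendritic cell-like cells, Il4i1, an amino acid oxidase gene of mature dendritic cells, stood at 553 CPM in THP (exact Poisson 95% interval 495 to 616) and 68.4 CPM in vehicle (51.6 to 88.8), a log2 ratio of 3.00. In macrophage-like cells it stood at 24.4 and 5.48 CPM (1.97). Ccl4 stood at 13.3 CPM (5.73 to 26.2) and 12.2 CPM (5.85 to 22.5) in the conventional dendritic cell-like cells (0.11). In the Ifitm1-led cells it stood at 189.8 and 7.65 CPM (4.46). Cxcl2 had a log2 ratio of 0.31 in the conventional dendritic cell-like cells and 1.63 in the macrophage-like cells, and Sod2 ratios of 0.23 and 1.38. Differences between clusters were not tested.

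H2-Aa, whose level the rule bounds from below in every cell set, had its highest ratios in 3 of these clusters. H2-Aa stood at 4188 CPM in THP and 2959 CPM in vehicle in the Ifitm1-led cells (0.50). In the Ifi205-led cells it stood at 6472 and 4846 CPM (0.42), and in the conventional dendritic cell-like cells at 9514 and 7796 CPM (0.29). In the macrophage-like, mitotic-like and progenitor-like cells the log2 ratios of H2-Aa were 0.11, 0.09 and 0.05. Over the 6 clusters, those of the other genes of the rule ran from 0.01 to 0.45 (H2-Ab1), -0.01 to 0.48 (H2-Eb1) and -0.01 to 0.39 (Cd74). None passed 2-fold.

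The other kept cells were set beside these values (the plot of ratios in both sets of cells). Of 8013 genes at 10 CPM there, 73 were past 2-fold higher (0.911%) and 241 lower (3.01%), or 137 and 69 with TMM scaling. Both comparisons use the same 2 cultures, so likeness between them is no independent evidence. Their median log2 ratios were 1.56 over the cytokine and chemokine genes and 1.29 over the NF-kB genes. Fpr2 had log2 ratios of 2.42 in the class II high cells and 1.07 in the others, Cxcl3 2.76 and 1.56, and Il1rl1 -1.90 and -0.93. Cxcl1 ran the other way, at 2.17 and 3.13. These differences between cell sets were not tested.

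**Figure D5:**
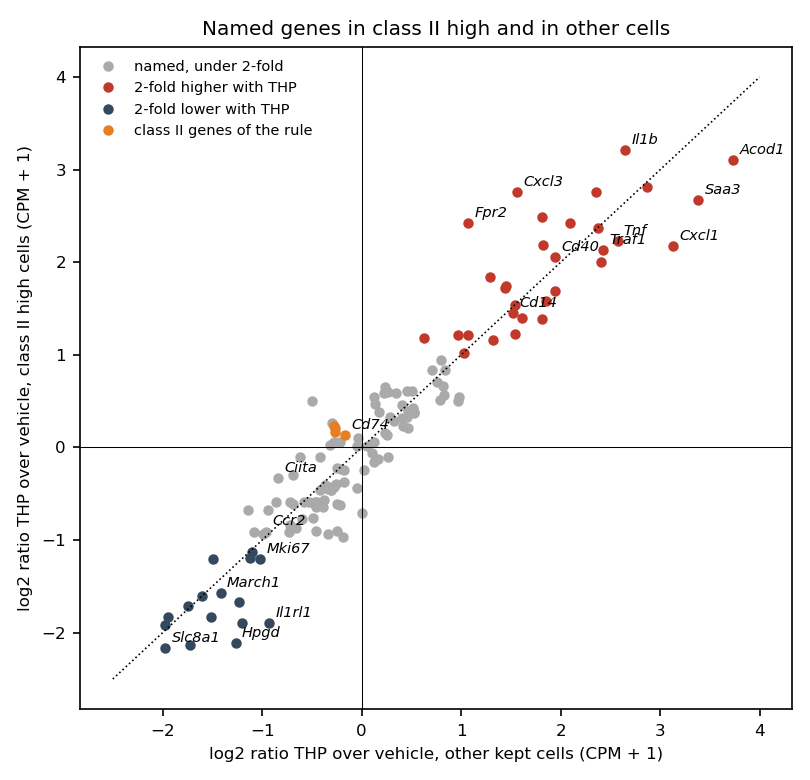
Log2 ratio of THP over vehicle (CPM plus 1) in the class II high cells (vertical) and in the other kept cells (horizontal) for the 142 named genes; the dotted line marks equal ratios. Points lie along the line, with Il1b, Cxcl3 and Fpr2 above it, Acod1, Saa3 and Cxcl1 below it, and the 4 class II genes near 0.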

How the data were processed

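The files were gene by cell matrices of UMI counts, made and deposited by the authors as 1 matrix per library. Cell Ranger, STAR, bcl2fastq and the mm10 genome are named in the submitters' processing notes, and the matrices carry software version 3.1.0, per the file headers. Values start from those deposited counts, with no normalization by the authors.

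Barcodes with at least 500 genes, 1000 UMIs and at most 10% mitochondrial UMIs were kept (12123 of 13193 in THP and 10978 of 11584 in vehicle). No doublet caller was run. The members, gene lists and rules were chosen with earlier results of these data known. UMIs were summed over the cells of a library and divided by the total to give CPM (per 1000000 UMIs), with exact Poisson 95% intervals. Shares have exact Clopper-Pearson 95% intervals. Both kinds cover counting error only, since each treatment has 1 library. Ratios are log2 of CPM plus 1 in THP over vehicle, so they understate the differences of low genes. A gene was called at 10 CPM in at least 1 library and a 2-fold ratio.

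Cells were clustered with scanpy 1.11.5 and igraph 0.11.9 in Python 3.11.15 (2000 variable genes, 30 components, 15 neighbours, resolution 0.5). A cluster was named from marker lists when a marker was among its 10 leading genes and at least 3 markers, and at least a share of 0.5 of the list, reached 50 CPM. That share was set after the levels had been seen. Where more than 1 list qualified, the list with the most markers among the leading genes gave the name. TMM and RLE factors came from edgeR 4.0.16 in R 4.3.3, used for scaling only. The rule for finding called genes was tested on simulated data. These held Poisson counting error only and changes larger than 2-fold, so that test says nothing about variation between cells, cultures or libraries.

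Named genes were the genes of the rule, the 10 highest and 10 lowest ratios whose sign was shared by all clusters with 50 or more cells from both libraries, from each list as many as 6 members by ratio and 3 by level, the 15 genes highest over the other cells, and markers by level. Alternatives changed the class II and C1q limits, the cell filter, depth, scaling, CPM minimum, pseudocount, fold, cell weighting, cluster mix, length centring and resolution. Clusters without differing genes, values within them and values without single clusters were added after the data had been seen. Gene positions are from GENCODE M21 (GRCm38) and promoters from RefSeq (GRCm38.p6).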

Additional observations from a re-analysis of the deposited data

Results flagged for a closer look

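For 9 genes the ratio of THP over vehicle had opposite signs in the class II high cells and in the other kept cells. None of these differences was tested, none of the 9 passed 2-fold in the class II high cells, and the class II genes among them chose the cells. The log2 ratios in the class II high cells and the others were 0.14 and -0.17 for Cd74, 0.21 and -0.27 for H2-Aa, 0.23 and -0.28 for H2-Ab1 and 0.17 and -0.27 for H2-Eb1. For the pathway genes H2-DMb2 and H2-Oa they were 0.50 and -0.50, and 0.26 and -0.30. Csf1r, Ctss and Trem2 ran the other way, at -0.16 and 0.12, -0.24 and 0.02, and -0.13 and 0.16. With TMM scaling in both sets of cells, Cd74 (0.36 and 0.11), H2-Aa (0.43 and 0.01), H2-Eb1 (0.39 and 0.00), Csf1r (0.06 and 0.40) and Trem2 (0.09 and 0.44) no longer had opposite signs. H2-Ab1 (0.45 and -0.00), H2-DMb2 (0.71 and -0.30), H2-Oa (0.47 and -0.10) and Ctss (-0.02 and 0.30) still did.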

How the results depend on the processing

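No paired analysis was possible because each treatment has 1 library. The share of class II high cells was 9.16% in THP and 11.1% in vehicle with a class II limit of 25, 5.00% and 5.69% with a limit of 100, and 7.56% and 9.82% after thinning to 5000 UMIs. Without the C1q limit the THP share was 7.47%. The share was lower in THP under each of these settings for which both values are given. Set against 89 genes higher and 304 lower, TMM scaling gave 140 and 113, RLE scaling 141 and 102, a minimum of 50 CPM 47 and 91, a pseudocount of 10 gave 48 and 58, and a limit of 1.5-fold 200 and 1672. Length centring gave 129 lower, and the same mix of clusters 40 higher. That mix used 7 clusters with as few as 11 vehicle cells and left out clusters with 197, 258 and 89 vehicle cells. Those clusters were formed with the differing genes in use, so the mix is not independent of the ratios it was applied to. Fewer cells entered the values within clusters. There, 217 genes were higher in the conventional dendritic cell-like and 158 in the progenitor-like cells. Lower genes numbered 746 in the Ifitm1-led, 540 in the mitotic-like, 850 in the Ifi205-led, 1595 in the conventional dendritic cell-like and 696 in the progenitor-like cells. In the other kept cells TMM scaling gave 137 higher and 69 lower. Resolution 1.0 gave 18 clusters in place of 10. With the same mix of clusters Cd83 reversed to -0.65, H2-Q6 to -0.45 and H2-Q7 to -0.21. Each of these genes was above 0 in all 6 clusters with at least 50 cells per library. Cxcl3 reversed to -0.56 in the Ifitm1-led cells and Hist1h2ap to 0.25 in the conventional dendritic cell-like cells. The cause of these shifts was not tested. Over 142 named genes, 2982 values were recomputed. For the 47 genes past 2-fold, a value counted as the same while it stayed past 2-fold, though its size could change. For the other 95 it counted as the same within the range of the counting intervals, and a change of sign beyond that range counted as moved. By these rules 2168 values were the same, 730 moved, 79 dropped under 2-fold and 5 reversed.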

Other observations

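Barcodes that failed the cell filter also met the class II rule at times, in 63 of 1070 in THP (5.89%, exact binomial 95% interval 4.55 to 7.47%) and 26 of 606 in vehicle (4.29%, 2.82 to 6.22%). These barcodes entered no comparison.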
